A study of Mus musculus with 54 samples.

Results

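The CC chemokine transcripts Ccl2, Ccl3, Ccl4, Ccl5, Ccl7, Ccl8, Ccl12, Ccl22 and Ccl24 were followed in macrophages of the mouse brain. They were chosen by symbol, and all 9 were found among the 33280 gene symbols of the count tables. RNA-seq was performed on microglia (MG), the macrophages of the brain parenchyma, and on subdural CNS-associated macrophages (sdCAMs), which line the leptomeninges and vessels and are labelled CAMs, both sorted from brains devoid of choroid plexuses. The data comprised 54 libraries in 18 groups of 3, from 9 wild-type (WT) mice, 9 Ccr2 KO mice and 6 reporter mice labelled Ccr2CreERT2/CreERT2:R26tdT/tdT.

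WT and Ccr2 KO mice were either untreated and injected with PBS (the resting groups), or given vehicle (CTL) or BLZ945 and later lipopolysaccharide (LPS), a bacterial endotoxin. BLZ945 inhibits the CSF1 receptor and depletes these macrophages, after which they repopulate. In these mice vehicle and LPS therefore changed together between the resting and the CTL groups and cannot be told apart, and the change is named after LPS. All reporter mice were given BLZ945 and tamoxifen, and then PBS or LPS, so no reporter group without BLZ945 was available. Injection followed 8 weeks after the treatment, and cells were sorted 12 h later. The Ccr2 KO affects all cells of the animal. In reporter mice, Cre is expressed from the Ccr2 locus and is active only with tamoxifen, so that tdTomato-positive (tdT+) sdCAMs are cells that expressed Ccr2 at that time or their progeny, whereas tdT- sdCAMs may include cells that escaped labelling. Each library came from 1 mouse, and each mouse gave MG and sdCAMs. Ages were not given in the labels. In bulk samples, fewer cells of one type and less RNA per cell cannot be told apart.

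CC chemokines are small secreted proteins that bind G-protein-coupled receptors on leukocytes and direct their migration. Macrophages transcribe many of them when Toll-like receptors sense microbial products, and in the brain they guide monocytes and lymphocytes from blood to tissue. Ccl2, Ccl7 and Ccl12 are ligands of CCR2, the receptor by which inflammatory monocytes leave the bone marrow. Mouse Ccl8 acts mainly through CCR8. Ccl3, Ccl4 and Ccl5 attract T cells and macrophages, and Ccl3 and Ccl5 bind CCR1. Ccl22 attracts T cells through CCR4, and Ccl24 attracts eosinophils through CCR3.

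In the GRCm38 annotation (GENCODE M21), 7 of the 9 genes lay on chromosome 11. Ccl2 (chr11:82035571-82037453), Ccl7 (chr11:82045712-82047525), Ccl12 (chr11:82101845-82103400) and Ccl8 (chr11:82115185-82116799) followed each other on the plus strand. Ccl5 (chr11:83525778-83530518, minus strand), Ccl3 (chr11:83647844-83649355, minus strand) and Ccl4 (chr11:83662584-83664683, plus strand) lay further along. Ccl22 was on the plus strand at chr8:94745590-94751699 and Ccl24 on the minus strand at chr5:135569937-135573049. Ccl2 overlapped Gm17268 on the opposite strand, and reads of this pair cannot be told apart, since no source used here gives the strand setting. Of the 9 members, 4 had a promoter in the RefSeq table (GRCm38.p6). The 250 bases before the start of the neighbours Ccl8 and Ccl12 are shown because these genes had opposite places in MG, with Ccl12 the highest member per kb of exon at rest in every genotype and Ccl8 at or near 0. Capitals mark TATAAA, the core of a TATA box.
Ccl8 (chr11:82114935-82115184, plus strand): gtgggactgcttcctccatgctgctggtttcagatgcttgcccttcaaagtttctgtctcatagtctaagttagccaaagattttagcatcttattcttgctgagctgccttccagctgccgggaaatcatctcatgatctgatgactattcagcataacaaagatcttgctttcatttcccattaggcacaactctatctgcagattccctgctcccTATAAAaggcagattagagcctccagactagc
Ccl12 (chr11:82101595-82101844, plus strand): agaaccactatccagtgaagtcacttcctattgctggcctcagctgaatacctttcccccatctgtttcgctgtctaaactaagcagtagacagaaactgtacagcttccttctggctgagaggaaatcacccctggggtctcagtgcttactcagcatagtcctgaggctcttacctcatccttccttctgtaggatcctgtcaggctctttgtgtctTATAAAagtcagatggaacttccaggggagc

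TATAAA was found in both of these windows and not in those of Ccl3 and Ccl22, the other members with a promoter in the table. It occurred in 12.37% of 32851 promoters of that length. The kappaB consensus (found in 3.9% of promoters), the interferon-stimulated response element (ISRE, 2.98%) and TGANTCA (AP-1, 6.75%) were in none of the 4 windows, and TTNNGNAA (C/EBP, 36.85%) was in that of Ccl3 alone. Motifs were searched on both strands, and a match describes letters, not a site in use.

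Libraries held 1705930 to 11330781 counts (median 8543081). WT sdCAMs (1705930 to 7699790) and reporter sdCAMs after LPS (2060240 to 8751293) were the shallowest, and all others had at least 7497764. Levels are given as CPM, counts scaled to a common library size, by TMM over the 54 libraries, with a detection floor of 3 counts per library. Floors cover counting error only, since no molecular identifiers were used. Saa3, a serum amyloid gene, took 21 to 35.8% of counts in 4 WT sdCAM libraries after LPS and 14.5 to 28.3% in tdT- sdCAMs after LPS, and TMM raised the other genes of these libraries relative to plain CPM. The 7 sdCAM markers, which include Mrc1, the gene of the CD206 protein used in the sort, summed to 906 to 26000 CPM in sdCAMs and to at most 28.8 CPM in MG. In Ccr2 KO mice given LPS, titles and cell type labels conflicted in all 12 libraries. The cell type labels, which the library names share, were followed, and the sdCAM markers summed to 6010 to 7910 CPM under the label CAMs and to 8.88 to 16.6 CPM under the label MG. Ccr2, the targeted gene, was at 51.1, 17.1 and 28.9 CPM in resting WT sdCAMs and at 2.83, 2.33 and 5.21 CPM in those labelled Ccr2 KO. The genotypes overlapped in resting MG (3.08 to 8.54 and 4.71 to 6.48 CPM). In sdCAMs after CTL and LPS the order went against the labels, with 0 to 0.756 CPM in WT libraries and 3.06 to 5.48 CPM in those labelled Ccr2 KO. The deleted part of the gene is not given in the sources used here, so these counts check the genotype labels only in part. In 6 WT sdCAM libraries (untreated mice 9 and 14, CTL mice 1, 4 and 6, and BLZ945 mouse 12) the labels carried an "IEG_correction" mark that they do not explain.

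**Figure D1:**
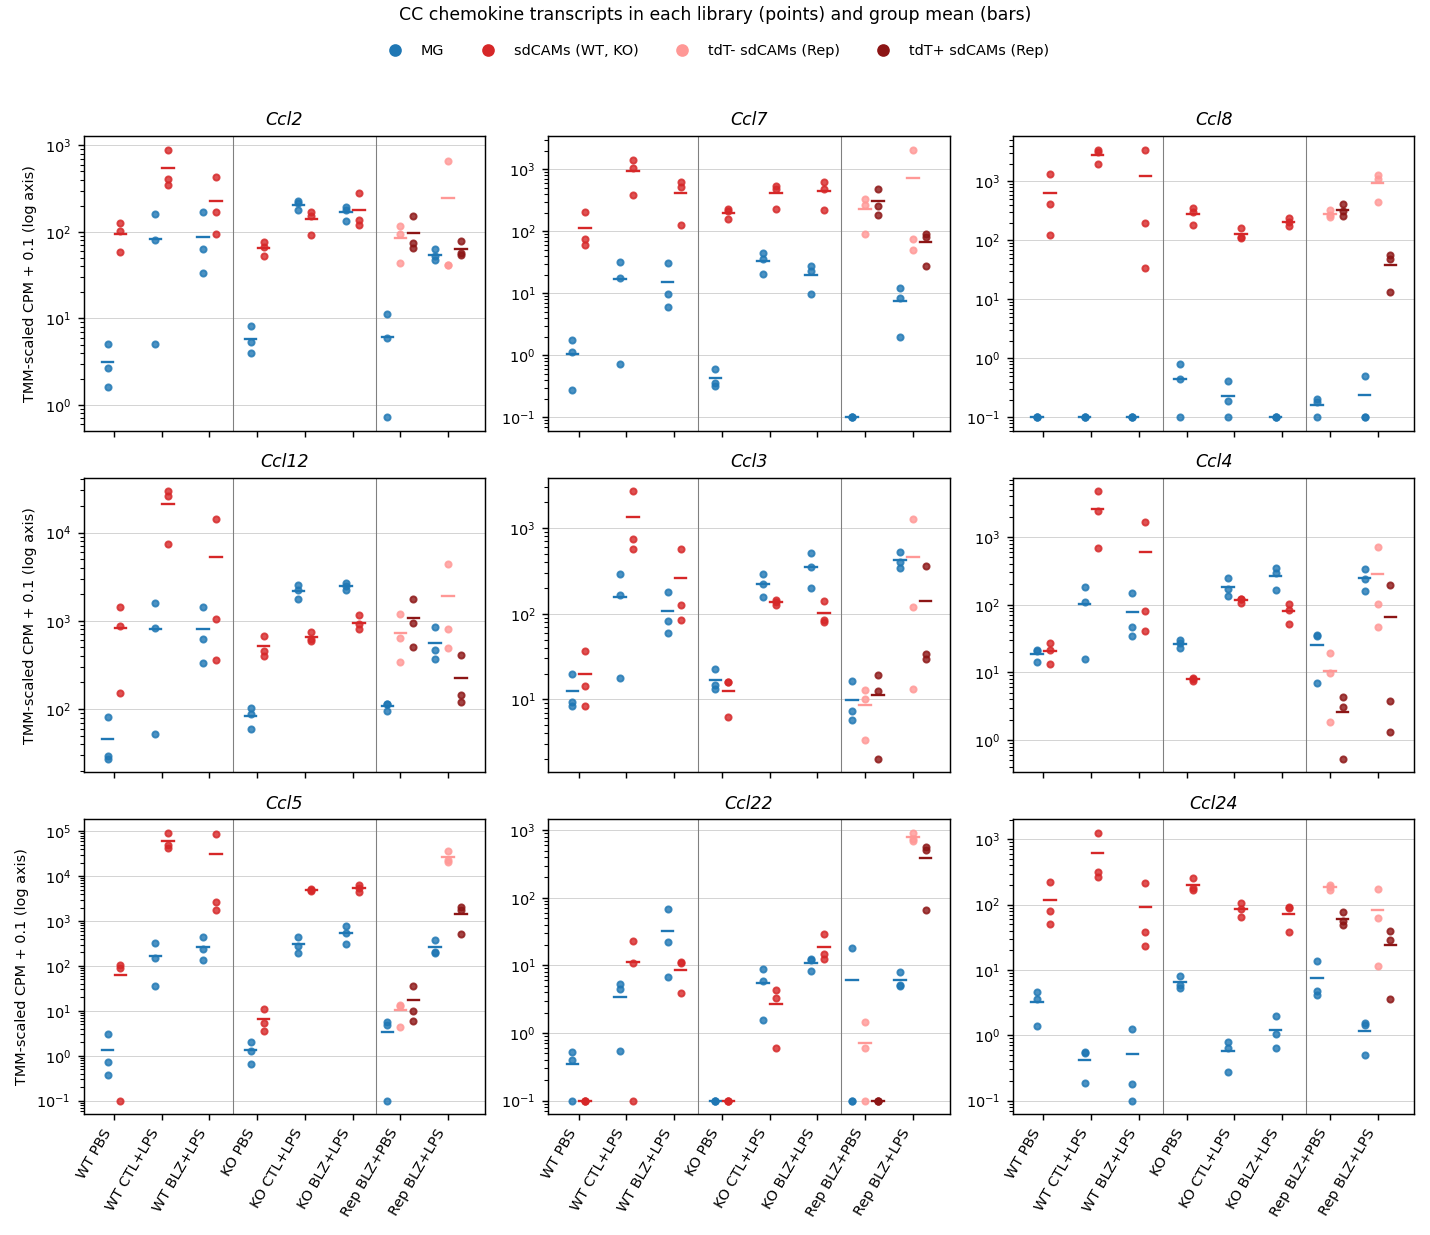
Level of each member (TMM-scaled CPM plus 0.1, log axis) in every library, by genotype and treatment. Points are libraries of 1 mouse (3 per group), bars are group means, and colours mark MG, sdCAMs, and tdT- and tdT+ sdCAMs. Ccl8 stays at or near 0 in all MG, and Ccl5 goes from at most 103 CPM in resting WT sdCAMs to 42880 CPM or more in those given CTL and LPS.

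At rest, sdCAMs held more transcript of the CCR2 ligands, of Ccl8 and of Ccl24 than MG in all 3 genotypes. Of the 9 members, 6 were called higher in WT sdCAMs and none lower, where 17.1% of all genes tested were called in either direction. The members' median log2 difference was 4.99 beside 0.03 for all genes. A call required, here and below, an adjusted p under 0.05 by edgeR's quasi-likelihood test and a log2 difference over 1 in size.

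Ccl8 had no count in any of the 9 WT MG libraries, whatever the treatment. Resting WT sdCAMs had 1342, 421 and 123 CPM, at least 2110-fold more than the floor in MG. Resting Ccr2 KO MG had 0.696, 0.343 and 0 CPM beside 360, 298 and 184 CPM in sdCAMs, a log2 difference of 9.57 ± 0.51 (SE, adjusted p = 3.6e-10 by edgeR's quasi-likelihood test). In reporter mice at rest, MG had at most 1 count and the sdCAM libraries 245 to 414 CPM. Ccl8 thus separated the cell types without overlap in each genotype, both at rest and after LPS.

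Ccl24, the eosinophil attractant, showed the same order at lower contrast. Resting WT MG had 1.28, 4.48 and 3.5 CPM and WT sdCAMs 224, 80.4 and 49.9 CPM, a log2 difference of 5.29 ± 1.07 (adjusted p = 0.00302 by edgeR's quasi-likelihood test). It was 4.98 ± 0.39 in Ccr2 KO mice and 3.81 ± 0.83 in reporter mice (adjusted p = 1.66e-08 and 0.00449 by edgeR's quasi-likelihood test). No MG library reached the lowest sdCAM library of its genotype.

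Ccl2 and Ccl12 were above the floor in every resting library, whereas Ccl7 was at or near it in resting MG, with 2 to 16 counts per library in WT, 2 to 5 in Ccr2 KO and 0 in reporter mice. Ccl2 was at 5.0, 2.55 and 1.53 CPM in resting WT MG and at 58.5, 102 and 126 CPM in sdCAMs (log2 4.99 ± 1.0, adjusted p = 0.00293 by edgeR's quasi-likelihood test). Ccl7 was at 1.7, 1.02 and 0.18 CPM beside 60.4, 203 and 76.2 CPM (log2 6.9 ± 1.24, adjusted p = 0.00126 by edgeR's quasi-likelihood test). For both genes the groups were well apart.

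Ccl12 was at 80.7, 29.2 and 27.1 CPM in resting WT MG and at 1439, 869 and 151 CPM in sdCAMs (log2 4.22 ± 1.33, adjusted p = 0.0366 by edgeR's quasi-likelihood test). This call was lost when MG of mouse 9, 14 or 15 or sdCAMs of mouse 9 or 14 were left out (adjusted p up to 0.133). All 3 ligands were also higher in sdCAMs of Ccr2 KO mice, with log2 differences of 3.5 for Ccl2, 9.21 for Ccl7 and 2.62 for Ccl12. In reporter mice, Ccl2 and Ccl12 differed by 3.91 and 3.02 and Ccl7 by at least 940-fold.

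Ccl3 and Ccl4 did not follow this order. Ccl3 was at 8.25 to 19.7 CPM in resting WT MG and 8.32 to 36.6 CPM in sdCAMs, and Ccl4 at 14.4 to 21.3 and 13.1 to 26.9 CPM, and neither passed the test (log2 0.7 ± 0.9 and 0.16 ± 1.07, the latter -0.23 with library totals only). Ccl3 differed by -0.41 ± 0.37 in Ccr2 KO and -0.01 ± 0.95 in reporter mice, without a call. In Ccr2 KO mice Ccl4 was lower in sdCAMs, with 7.95, 7.45 and 8.15 CPM beside 29.5, 22.8 and 27.1 CPM in MG (log2 -1.76 ± 0.3, adjusted p = 0.000178 by edgeR's quasi-likelihood test). In reporter mice the difference of Ccl4 was -2.35 ± 1.03 (adjusted p = 0.158), and -2.55 with the mouse as a block, where it was called (adjusted p = 0.0323 by edgeR's quasi-likelihood test).

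Ccl5 was scarce at rest. WT MG had 2.87, 0.611 and 0.27 CPM and WT sdCAMs 103, 0 and 88.9 CPM, so the groups overlapped although the call was made (log2 5.68 ± 1.7, adjusted p = 0.0297 by edgeR's quasi-likelihood test). It was lost with the mouse as a block (log2 4.91, adjusted p = 0.0923) and when MG of mouse 9, 14 or 15 or sdCAMs of mouse 9 were left out (adjusted p up to 0.119). Ccr2 KO MG had 0.549 to 1.89 CPM and sdCAMs 3.49 to 10.7 CPM (log2 2.4 ± 0.5, adjusted p = 0.00158 by edgeR's quasi-likelihood test). In reporter mice the difference was 1.95 ± 0.8, without a call (adjusted p = 0.129).

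Ccl22 was at or near 0 in resting cells, with no count in sdCAMs of WT and Ccr2 KO mice. The exception was MG of reporter mouse 175, with 17.98 CPM (174 counts), where MG of mice 174 and 177 had none. Ccl22 was called lower in reporter sdCAMs than in MG at rest (log2 -5.92 ± 1.51, adjusted p = 0.0158 by edgeR's quasi-likelihood test), but the value was 2.66 (adjusted p = 1.0) without that library and -4.63 (adjusted p = 0.143) with the mouse as a block.

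In Ccr2 KO mice, 6 members were called higher and 1 lower in resting sdCAMs (15% of all genes, median 2.62 beside 0.0), and in reporter mice 5 higher and 1 lower (11.1% of all genes, median 3.02 beside 0.09). Leaving out single libraries gave 4 to 6 calls in WT mice, with 4 without sdCAMs of mouse 9 or MG of mouse 9, 14 or 15, and it left 7 in Ccr2 KO mice and 5 or 6 in reporter mice.

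Per kb of exon, the order of the members differed between the resting populations. In WT MG, Ccl12 (85.0 ± 56.5 CPM per kb, SD, n = 3) stood above Ccl4 (28.4 ± 5.76) without overlap, Ccl4 overlapped Ccl3 (16.2 ± 8.25), and the other 6 averaged at most 2.66 CPM per kb. In WT sdCAMs, Ccl12 (1526 ± 1202) and Ccl8 (1230 ± 1243) came first and overlapped each other, ahead of Ccl7 (142 ± 97.9), Ccl24 (91.2 ± 71.8) and Ccl2 (83.9 ± 30.1), which also overlapped their neighbours. Ccr2 KO sdCAMs gave the same first 5 in the same order, and there only Ccl7 and Ccl24 overlapped among them.

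**Figure D2:**
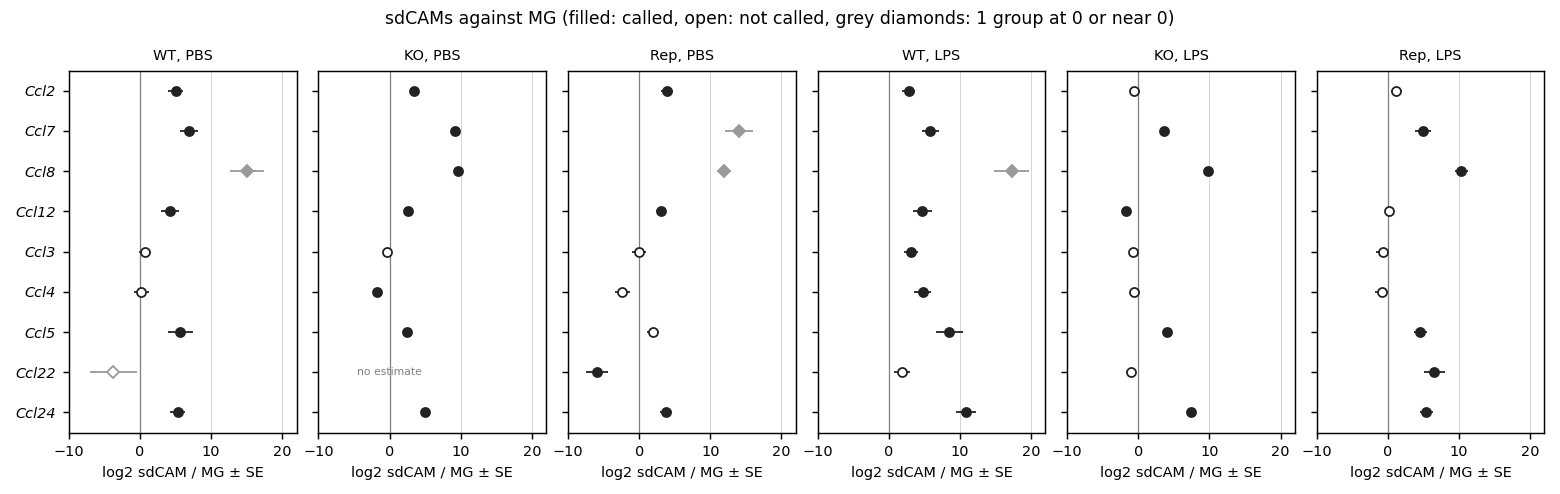
Log2 difference of each member between sdCAMs and MG (± SE) at rest and after LPS, by genotype. Filled symbols are calls and open symbols are not, and grey diamonds mark genes at or near 0 in one population, where the fitted value depends on the prior count and is no bound. At rest Ccl2, Ccl7, Ccl8, Ccl12 and Ccl24 lie right of 0 in each genotype.

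In MG of WT and Ccr2 KO mice, LPS raised the CCR2 ligands, Ccl3, Ccl4, Ccl5 and Ccl22, and lowered Ccl24. In WT mice, 7 of 8 members tested were called higher and 1 lower (16.7% of all genes), with a median log2 change of 3.96 beside 0.02 for all genes. In Ccr2 KO mice, 7 of 8 were also called higher and 1 lower (19.4% of all genes), with a median of 4.96 beside 0.0, or 4.46 with Ccl22 at its bound. Ccl8 was too low to be tested in MG.

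Ccl5 had the highest fitted change in WT MG. It was at 324, 34.8 and 148 CPM after CTL and LPS and at most 2.87 CPM at rest (log2 7.12 ± 0.94, adjusted p = 0.000234 by edgeR's quasi-likelihood test), with no overlap. In Ccr2 KO MG it went from at most 1.89 CPM to 278, 193 and 436 CPM (log2 7.95 ± 0.48, adjusted p = 6.05e-08 by edgeR's quasi-likelihood test).

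The CCR2 ligands rose evenly in Ccr2 KO MG. Ccl12 went from 102, 59.3 and 87.1 CPM to 2560, 1771 and 2226 CPM (log2 4.74 ± 0.21, adjusted p = 4.14e-09 by edgeR's quasi-likelihood test). Ccl2 went from 8.15, 3.86 and 5.27 CPM to 228, 177 and 215 CPM (log2 5.19 ± 0.26, adjusted p = 1.42e-08 by edgeR's quasi-likelihood test). Ccl7 went from 0.22 to 0.497 CPM at rest to 20.7 to 44.5 CPM (log2 6.67 ± 0.54). None of the 3 overlapped between groups. Per kb, Ccl12 stood above all other members in these cells (4070 ± 738 CPM per kb), and Ccl5 (315 ± 128), Ccl3 (292 ± 88.1) and Ccl4 (280 ± 87.7) followed and overlapped.

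Ccl3 and Ccl4 rose by less in Ccr2 KO MG. Ccl3 went from 22.4, 14.7 and 13 CPM to 291, 156 and 223 CPM (log2 3.77 ± 0.34, adjusted p = 2.01e-06 by edgeR's quasi-likelihood test) and Ccl4 from 29.5, 22.8 and 27.1 CPM to 248, 134 and 173 CPM (log2 2.82 ± 0.28, adjusted p = 4.15e-06 by edgeR's quasi-likelihood test). Ccl22 went from no count to 5.76, 1.46 and 8.78 CPM, at least 18.1-fold. Ccl24 fell from 5.87, 5.23 and 8.02 CPM to 0.537, 0.172 and 0.695 CPM (log2 -3.71 ± 0.72, adjusted p = 0.0012 by edgeR's quasi-likelihood test). The groups were apart for each of these genes.

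In WT MG the changes were uneven between mice. Log2 changes were 4.78 ± 1.03 for Ccl2, 4.14 ± 1.12 for Ccl7, 4.17 ± 0.96 for Ccl12, 3.67 ± 0.79 for Ccl3, 2.44 ± 0.71 for Ccl4, 3.79 ± 1.22 for Ccl22 and -3.23 ± 1.12 for Ccl24, with adjusted p from 0.00465 to 0.0459 by edgeR's quasi-likelihood test. In MG of mouse 4, Ccl2 (4.94 CPM), Ccl7 (0.629), Ccl12 (51.5), Ccl3 (17.4) and Ccl4 (15.7) lay within the resting range after CTL and LPS, although in plain CPM Ccl2 (6.65) was just above it (up to 6.27). These genes were at 162, 32.0, 1583, 291 and 180 CPM in mouse 1 and at 79.6, 17.7, 819, 164 and 108 CPM in mouse 6. In mouse 4, Ccl5 was nevertheless 27.8 times the resting mean and Ccl24 0.146 times.

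MG of mouse 4 differed from resting MG in many other genes. Of 1295 non-member genes called higher without that mouse, 88.6% were above all resting libraries in it, with a median log2 change of 0.91 beside 1.58 in mice 1 and 6, and of 1275 called lower, 89.0% were below. These genes were called against the same resting libraries, and the share of all genes beyond them in mouse 4 is not given. The percentages therefore do not measure the response of that mouse. Fkbp5, a glucocorticoid-induced gene chosen here after its values were seen, was at 1040 CPM in mouse 4, at 932 and 977 CPM in mice 1 and 6, and at 73.3 to 85.8 CPM at rest. In sdCAMs of the same mouse, the CCR2 ligands, Ccl3 and Ccl4 were above all resting sdCAMs, except for Ccl2 in plain CPM (147 CPM, beside up to 149 CPM at rest).

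The 8 calls in WT MG became 7 without MG of mouse 4, 5 without mouse 1, 6 or 9, and 4 without mouse 14 or 15. Ccl24 lost its call without any 1 of the 6 libraries (adjusted p 0.0589 to 0.145) and with library totals only (0.0507), Ccl22 and Ccl4 without any but mouse 4 (up to 0.116 and 0.0804), and Ccl7 without mouse 14 or 15 (0.0532 and 0.0641).

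In MG of reporter mice, which had all repopulated after BLZ945, 1 of 8 members tested was called higher and none lower (1.08% of all genes), while 7 had an unadjusted p under 0.05 and DESeq2 called 6. Ccl2 (3.19 ± 0.94), Ccl4 (3.22 ± 0.69) and Ccl24 (-2.88 ± 1.15) had no call (adjusted p 0.0828 to 0.314 by edgeR's quasi-likelihood test). The share of higher calls among all genes was 61%, and 72.1% with library totals only. After LPS, Ccl2, Ccl3, Ccl4, Ccl5, Ccl7 and Ccl12 lay above and Ccl24 below the resting libraries without overlap. The share of all genes apart in this way is not given. The median log2 change was 3.2 beside 0.03, or 3.21 with Ccl7 at its bound. The call was Ccl3, from 16.4, 7.13 and 5.67 CPM to 399, 534 and 338 CPM (log2 5.41 ± 0.56, adjusted p = 0.0103 by edgeR's quasi-likelihood test), and it was lost without LPS mouse 1, 5 or 7, which left 0 calls. Ccl12 was at 114, 93.9 and 114 CPM at rest and 859, 468 and 367 CPM after LPS (log2 2.37 ± 0.41, adjusted p = 0.0502 by edgeR's quasi-likelihood test).

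Ccl5 in reporter MG was at 5.41, 0 and 4.68 CPM at rest and 383, 206 and 191 CPM after LPS (log2 6.26 ± 1.29, adjusted p = 0.077 by edgeR's quasi-likelihood test). Ccl7 had no count at rest and 12.3, 8.32 and 1.88 CPM after LPS (adjusted p = 0.0957). The resting library of mouse 175, with Ccl5 at 0, Ccl2 at 0.62 and Ccl22 at 17.98 CPM, stood apart, and without it 6 members were called and the change of Ccl22 went from -0.13 to 8.97 (adjusted p = 0.0499). The share of all genes called without that library is not given.

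**Figure D3:**
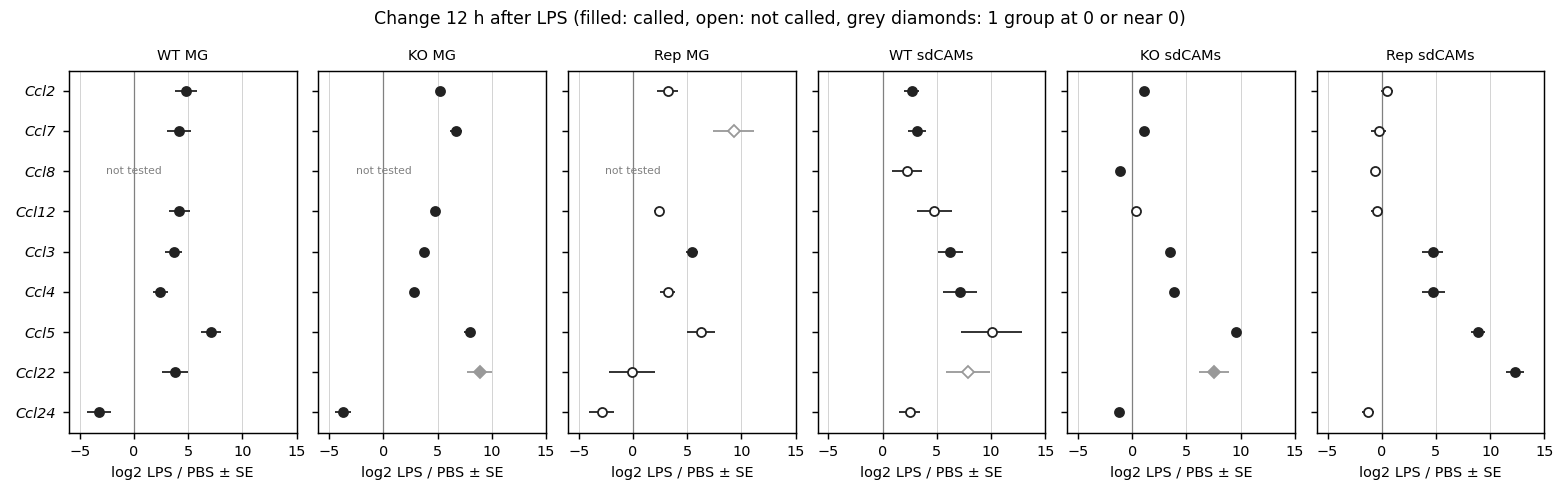
Log2 change of each member after LPS against PBS (± SE) in MG and sdCAMs of WT, Ccr2 KO and reporter mice. Filled symbols are calls and open symbols are not, and grey diamonds mark genes at or near 0 in one group, where the fitted value depends on the prior count and is no bound. Ccl5 lies at 6.26 or more in each panel, whereas Ccl12 lies at 4.74 in Ccr2 KO MG and at 0.35 in Ccr2 KO sdCAMs.

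In sdCAMs, Ccl3 and Ccl4 were called higher with LPS in each genotype, in reporter mice as a mean over tdT- and tdT+ cells. The values of the CCR2 ligands, Ccl8 and Ccl24 differed between genotypes. In WT sdCAMs, 4 of 9 members were called higher and none lower (6.32% of all genes), namely Ccl2, Ccl7, Ccl3 and Ccl4. Ccl22 overlapped with rest, and the other members lay above it. In plain CPM, without the TMM scaling, Ccl3, Ccl4, Ccl5 and Ccl12 were still apart from rest, and Ccl2, Ccl7, Ccl8 and Ccl24 overlapped. The share of all genes apart from rest is not given. The median log2 change was 4.78 beside -0.08. In Ccr2 KO sdCAMs, 6 were called higher and 2 lower (21.5% of all genes, median 1.09 beside -0.05). In reporter sdCAMs, over tdT- and tdT+ libraries, 4 were called higher and none lower (28.8% of all genes, median 0.46 beside 0.07). That test took both libraries of a reporter mouse as separate, and summed per mouse it called 5, with Ccl24 in addition (log2 -1.57, beside -1.27 ± 0.54 and no call over all libraries). The changes of Ccl2 (0.46 ± 0.56), Ccl7 (-0.26 ± 0.69), Ccl8 (-0.67 ± 0.33) and Ccl12 (-0.43 ± 0.52) were not called. These values are means over tdT- and tdT+ cells, which can hide opposite changes. As labelled, mean Ccl8 went from 280.5 to 943.2 CPM in tdT- and from 328.7 to 38.94 CPM in tdT+ cells. The share of higher calls among all genes was 57.5%, and 42.8% with library totals only.

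Ccl5 gave the most counts of any member after LPS. WT sdCAMs given CTL and LPS had 92120, 42880 and 49030 CPM, which was 3.17, 1.54 and 2.42% of their counts. They had 103, 0 and 88.9 CPM at rest, and although the groups were far apart, the fitted change of 10.05 ± 2.78 missed the threshold (adjusted p = 0.0543 by edgeR's quasi-likelihood test, 4.43e-05 to 0.164 over the alternatives, with none given by DESeq2). In Ccr2 KO sdCAMs, Ccl5 rose from 10.7, 3.49 and 5.32 CPM to 4638, 5044 and 4866 CPM (log2 9.53 ± 0.37, adjusted p = 8.38e-09 by edgeR's quasi-likelihood test), or 0.451 to 0.482% of counts. In reporter sdCAMs it rose by 8.87 ± 0.63 (adjusted p = 2.49e-07 by edgeR's quasi-likelihood test).

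Ccl3 in WT sdCAMs went from 14.0, 36.6 and 8.32 CPM to 755, 575 and 2699 CPM (log2 6.23 ± 1.15, adjusted p = 0.0145 by edgeR's quasi-likelihood test). Ccl4 went from 26.9, 21.5 and 13.1 CPM to 2411, 700 and 4750 CPM (log2 7.13 ± 1.57, adjusted p = 0.026 by edgeR's quasi-likelihood test). Ccr2 KO sdCAMs had Ccl3 at 128 to 145 CPM (log2 3.44 ± 0.36) and Ccl4 at 106 to 121 CPM (log2 3.88 ± 0.28). Both were apart from rest in these genotypes, but overlapped with rest in reporter sdCAMs, where the changes were 4.7 ± 0.97 and 4.76 ± 1.07 (adjusted p = 0.00165 and 0.00305 by edgeR's quasi-likelihood test). In tdT+ cells after LPS, Ccl4 of mice 1 and 7 (1.23 and 3.7 CPM) lay within its resting range of 0.424 to 4.21 CPM. In mouse 5 it was at 194 CPM.

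Ccl12 had the widest gap between genotypes among the CCR2 ligands. WT sdCAMs were at 1439, 869 and 151 CPM at rest and 25840, 7397 and 29370 CPM after LPS, with no overlap (log2 4.78 ± 1.62, adjusted p = 0.0962 by edgeR's quasi-likelihood test, 0.000435 to 0.252 over the alternatives). Ccr2 KO sdCAMs were at 403, 679 and 456 CPM at rest and 750, 594 and 617 CPM after LPS, with overlap (log2 0.35 ± 0.21, adjusted p = 0.24 by edgeR's quasi-likelihood test). The difference between the genotypes was not tested. All WT CTL sdCAM libraries carried the IEG correction mark and no Ccr2 KO library did, so genotype and mark cannot be told apart. Among WT sdCAMs after BLZ945 and LPS, Ccl12 was at 1043 and 361 CPM in unmarked libraries and at 14290 CPM in the marked one. The paper corrected its WT and Ccr2-/- data for batch, and the counts used here were not corrected.

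Ccl2 rose in WT sdCAMs from 58.5, 102 and 126 CPM to 343, 408 and 890 CPM (log2 2.68 ± 0.7, adjusted p = 0.0455 by edgeR's quasi-likelihood test). It rose in Ccr2 KO sdCAMs from 53.2, 76.2 and 66.1 CPM to 154, 91.7 and 172 CPM (log2 1.09 ± 0.32, adjusted p = 0.0216 by edgeR's quasi-likelihood test). Ccl7 rose by 3.2 ± 0.84 in WT and 1.06 ± 0.36 in Ccr2 KO sdCAMs (adjusted p = 0.0472 and 0.0412 by edgeR's quasi-likelihood test). The groups were apart from rest, but in plain CPM Ccl2 and Ccl7 overlapped with rest in WT and Ccl7 in Ccr2 KO sdCAMs.

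Ccl8 and Ccl24 fell in Ccr2 KO sdCAMs, and in WT sdCAMs they were above rest with TMM scaling but overlapped with it in plain CPM. Ccl8 was at 3095, 3388 and 2009 CPM in WT sdCAMs after LPS and 123 to 1342 CPM at rest (log2 2.26 ± 1.39, adjusted p = 0.338 by edgeR's quasi-likelihood test). It fell in Ccr2 KO sdCAMs from 360, 298 and 184 CPM to 114, 162 and 109 CPM (log2 -1.13 ± 0.25, adjusted p = 0.00446 by edgeR's quasi-likelihood test). Ccl24 was at 263, 1259 and 322 CPM in WT sdCAMs after LPS and 224, 80.4 and 49.9 CPM at rest (log2 2.48 ± 0.99, adjusted p = 0.147 by edgeR's quasi-likelihood test). It fell in Ccr2 KO sdCAMs from 179, 258 and 166 CPM to 64.6, 84.9 and 106 CPM (log2 -1.24 ± 0.31, adjusted p = 0.00912 by edgeR's quasi-likelihood test). In plain CPM, WT sdCAMs had 992 to 1218 CPM of Ccl8 after LPS and 146 to 1129 CPM at rest, and 90.3 to 453 and 59.1 to 189 CPM of Ccl24. With library totals only, the WT changes were 0.95 and 1.09 (adjusted p = 0.392 and 0.249 by edgeR's quasi-likelihood test), and both falls in Ccr2 KO sdCAMs were still called (-1.28 and -1.39). After LPS the WT and Ccr2 KO libraries were apart for both genes, although not for Ccl24 in plain CPM, and the difference of their changes was not tested. As for Ccl12, genotype and mark cannot be told apart. The summed sdCAM markers also fell in Ccr2 KO sdCAMs, from 17400 to 18300 CPM at rest to 7310 to 7910 CPM after LPS. In WT sdCAMs they summed to 8720 to 16200 and 12000 to 26000 CPM. In plain CPM these WT sums were 10100 to 13600 and 5930 to 9350.

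Ccl22 had no count in resting sdCAMs of either genotype. After LPS it was at 23.0, 0 and 10.8 CPM in WT sdCAMs (adjusted p = 0.052 by edgeR's quasi-likelihood test) and at 4.17, 3.16 and 0.49 CPM in Ccr2 KO sdCAMs, at least 7.8-fold higher than at rest.

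The calls in WT sdCAMs were sensitive to single libraries. Without CTL mouse 4, 3 members were called (Ccl3, Ccl4 and, in addition, Ccl22 with adjusted p = 0.0436 by edgeR's quasi-likelihood test), with 1 without CTL mouse 1 or 6 or resting mouse 14, and 0 without resting mouse 9 or 15. Ccl2 and Ccl7 lost their calls without any 1 of the 6 libraries (adjusted p 0.0707 to 0.149 and 0.0617 to 0.15), Ccl4 without any but CTL mouse 4 (up to 0.11), and Ccl3 without resting mouse 9 or 15. Scaled by library totals only, which shifted the median of all genes by -1.47 and the share of higher calls among all calls from 58.6 to 10.8%, 5 members were called higher, with Ccl5, Ccl12 and Ccl22 in place of Ccl2 and Ccl7. DESeq2 called 7 members, as did edgeR's quasi-likelihood test with the IEG correction mark as a covariate, and 6 were called within the marked libraries. The mark covered all 3 CTL libraries, 2 of 3 resting and 1 of 3 BLZ945 libraries, so that it and the treatment cannot be told apart in most of these comparisons.

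In Ccr2 KO sdCAMs, 5 members were called without resting mouse 1 or CTL mouse 1. Ccl7 lost its call without any library but CTL mouse 2 (adjusted p up to 0.143), Ccl2 without resting mouse 1 or 5 or CTL mouse 1 or 4, Ccl8 without resting mouse 1 (log2 -0.89), and Ccl24 without CTL mouse 1 (adjusted p = 0.0521). With library totals only, Ccl2 (log2 0.95) and Ccl7 (0.92) were not called, and DESeq2 did not call Ccl7 (adjusted p = 0.0641).

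Other genes moved with LPS in sdCAMs. The 6 neutrophil markers summed to 1.31 to 94.7 CPM in resting and 359 to 3290 CPM in LPS-treated WT sdCAMs, and to 1.4 to 3.03 and 61.2 to 96.6 CPM in those of Ccr2 KO mice, with Ly6g and Retnlg at 0 in each of these groups. The 14 immediate early genes summed to 953 to 1860 and 1540 to 1970 CPM in WT sdCAMs and to 910 to 1220 and 2940 to 3370 CPM in Ccr2 KO sdCAMs. The 4 monocyte markers, which include Ccr2, summed to 28.8 to 52.2 and 3.4 to 35.6 CPM in WT sdCAMs and to at most 8.43 CPM in those of Ccr2 KO mice at rest or after CTL and LPS. The 7 sdCAM markers summed to 8720 to 16200 and 12000 to 26000 CPM in WT sdCAMs. In Ccr2 KO sdCAMs they summed to 17400 to 18300 and 7310 to 7910 CPM. The 4 MG markers summed to 2940 to 5320 and 365 to 760 CPM in WT sdCAMs and to 1650 to 2470 and 306 to 474 CPM in Ccr2 KO sdCAMs. They were also lower after LPS in MG itself. The sums were 14400 to 15500 and 1670 to 3910 CPM in WT MG and 21100 to 21500 and 3970 to 4470 CPM in Ccr2 KO MG. Across all sdCAM groups, B cell, endothelial, fibroblast, astrocyte and oligodendrocyte markers summed to at most 48.1, 39, 66.7, 300 and 523 CPM. Across MG groups, neutrophil, monocyte, T or NK cell, B cell, endothelial, fibroblast, astrocyte and oligodendrocyte markers summed to at most 77.6, 14.1, 0.102, 43.7, 57, 1.2, 362 and 94.1 CPM. Their part in the results was not tested.

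After LPS, 8 of 9 members were called higher in WT sdCAMs than in WT MG and none lower (35.4% of all genes, median 4.75 beside -0.12). Ccl5 differed by 8.54 ± 1.9 and Ccl24 by 10.89 ± 1.38 (adjusted p = 0.00247 and 6.48e-05 by edgeR's quasi-likelihood test), and Ccl8 by at least 10900-fold. Ccl24 was at 0.0829 to 0.449 CPM in these MG, near the floor, so its fitted size rests on few reads. Ccl2, Ccl7 and Ccl12 differed by 2.78 ± 0.89, 5.86 ± 1.15 and 4.72 ± 1.36 (adjusted p 0.00119 to 0.0219 by edgeR's quasi-likelihood test), while Ccl22 (1.87 ± 1.14) had no call. Ccl3 and Ccl4, which overlapped at rest, differed by 3.15 ± 0.95 and 4.75 ± 1.22 (adjusted p = 0.0158 and 0.00625 by edgeR's quasi-likelihood test). The calls numbered 6 without MG or sdCAMs of mouse 6, where Ccl2 and Ccl3 were lost, and 7 without MG of mouse 4. With library totals only, which shifted the median of all genes by -1.79 and the share of higher calls from 54.1 to 14.9%, Ccl2 and Ccl3 were not called, and both overlapped between the cell types in plain CPM. With median-of-ratios size factors that share was 65.2% and all 8 calls were made.

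After LPS in Ccr2 KO mice, 4 members were called higher and 1 lower in sdCAMs than in MG (18.4% of all genes, median -0.57 beside -0.06). Ccl12 was the lower one, at 594 to 750 CPM in sdCAMs and 1771 to 2560 CPM in MG (log2 -1.74 ± 0.22, adjusted p = 5.76e-06 by edgeR's quasi-likelihood test), opposite to its order at rest. Ccl2, Ccl3 and Ccl4 also lay below MG in every sdCAM library without passing the test (log2 -0.57 ± 0.3, -0.71 ± 0.34 and -0.67 ± 0.27). Ccl5, Ccl7, Ccl8 and Ccl24 were higher in sdCAMs (log2 4.01, 3.64, 9.74 and 7.47), and Ccl22 (-1.03 ± 0.73) had no call. In these MG, Ccl8 (mean 0.131 CPM) and Ccl24 (0.468 CPM) were near the floor, so their fitted sizes rest on few reads. With library totals only, the share of higher calls among all genes went from 50.6 to 34.7%, with no change in the members' calls.

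In reporter mice after LPS, 5 members were called higher in sdCAMs and none lower (8.7% of all genes, median 4.58 beside 0.0), namely Ccl5 (4.58), Ccl7 (4.88), Ccl8 (10.34), Ccl22 (6.54) and Ccl24 (5.38). Ccl8 averaged 0.138 CPM in these MG, near the floor, so its fitted size rests on few reads. Ccl2 (1.18 ± 0.77), Ccl3 (-0.73 ± 0.91), Ccl4 (-0.83 ± 1.02) and Ccl12 (0.21 ± 0.59, and -0.39 with library totals only) had no call. Without MG of mouse 5 or 7 the count was 3, as Ccl7 and Ccl22 were lost (adjusted p up to 0.059). With the mouse as a block, Ccl3 and Ccl4 were called lower in addition (log2 -2.32 and -2.92, adjusted p = 0.0486 and 0.0464 by edgeR's quasi-likelihood test). The share of higher calls among all genes went from 61.3 to 24.4% with library totals only.

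An interaction test asked whether the LPS change itself differed between sdCAMs and MG. In Ccr2 KO mice, 1 member had a more positive change in sdCAMs and 3 a more negative one (6.88% of all genes, median -0.3 beside -0.07). The interaction was -4.06 ± 0.45 for Ccl2, -5.57 ± 0.77 for Ccl7 and -4.36 ± 0.31 for Ccl12 on the log2 scale (adjusted p = 1.01e-05, 8.91e-05 and 6.8e-08 by edgeR's quasi-likelihood test), so that the CCR2 ligands rose more in MG. It was 2.49 ± 0.61 for Ccl24 (adjusted p = 0.0133), which lost its call without CTL MG of mouse 2 (adjusted p = 0.0616 by edgeR's quasi-likelihood test). Ccl3, Ccl4 and Ccl5 had interactions of -0.3 ± 0.51, 1.09 ± 0.4 and 1.61 ± 0.65 and were not called, nor was Ccl8 (0.17 ± 0.75, and -0.06 with library totals only). Ccl22, with no count at rest in either cell type, gave no estimate. Without resting sdCAMs of mouse 1, Ccl5 was called in addition (2.13, adjusted p = 0.05). The share of higher calls among all genes was 41.8%, and 22.9% with library totals only.

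In WT mice no member had an interaction called by edgeR's quasi-likelihood test (1.32% of all genes called, median 2.44 beside -0.23), while 2 had an unadjusted p under 0.05 and DESeq2 called 2. Ccl24 had a value of 5.6 ± 1.46 (adjusted p = 0.0635 by edgeR's quasi-likelihood test) and was called without resting sdCAMs of mouse 9 (adjusted p = 0.0473). With library totals only, 3 members were called (Ccl4 3.32, Ccl24 4.21 and Ccl2 -3.61), the median of all genes shifted by -1.47 and the share of higher calls went from 32.8 to 3.51% (44.6% with median-of-ratios size factors). Ccl4 had 4.59 ± 1.56 (adjusted p = 0.138), and Ccl2, Ccl7 and Ccl12 had -2.21 ± 1.21, -1.04 ± 1.36 and 0.5 ± 1.65, the last of which was -0.71 with library totals only. Ccl3 and Ccl5 had 2.44 ± 1.27 and 2.87 ± 2.05. Ccl8, at 0 in all MG, gave no estimate, and Ccl22, at 0 in resting sdCAMs, gave no size (adjusted p = 0.395).

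In reporter mice, the interaction was called for Ccl22 and Ccl7, 1 in each direction (2.15% of all genes, median -0.72 beside -0.11). For Ccl22 it was 12.45 ± 2.14 (adjusted p = 0.0046 by edgeR's quasi-likelihood test), and 3.81 (adjusted p = 1.0) without MG of mouse 175. For Ccl7, which had no count in resting MG, the fitted size depends on the prior count and is not given. Its LPS change was at least 26.2-fold upwards in MG and -0.26 ± 0.69 (log2) in sdCAMs. For every member, the sdCAM change in this test was the mean over tdT- and tdT+ cells. The call (adjusted p = 0.0304 by edgeR's quasi-likelihood test) was lost with the mouse as a block (adjusted p = 0.0527), without LPS MG of mouse 1 or 5, and without any 1 of the resting MG libraries (adjusted p up to 0.0711). Ccl2 (-2.73 ± 1.07), Ccl3 (-0.72 ± 1.34), Ccl4 (1.52 ± 1.5), Ccl5 (2.64 ± 1.04), Ccl8 (-1.56 ± 1.34), Ccl12 (-2.8 ± 0.85) and Ccl24 (1.57 ± 1.0) had no call, and Ccl12 was called with the block (-3.07, adjusted p = 0.0359). Without tdT- sdCAMs of LPS mouse 5, 4 members were called, with Ccl2 (-4.03) and Ccl12 (-3.63) in addition. Without MG of mouse 175 the calls of Ccl22 and Ccl7 gave way to that of Ccl5 (3.16, adjusted p = 0.0369). The share of higher calls among all genes was 43.7%, and 54 and 12.2% with median-of-ratios size factors and library totals only.

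Earlier BLZ945 treatment was compared with CTL among LPS-treated mice to ask whether repopulated cells carry other chemokine levels. No member was called in MG or sdCAMs by edgeR's quasi-likelihood test, where 0.0763% of all genes were called in WT MG, 0% in WT sdCAMs, 0.0173% in Ccr2 KO MG and 0% in Ccr2 KO sdCAMs. The members' medians were 0.04, -1.33, 0.59 and 0.15 in that order. Members with an unadjusted p under 0.05 numbered 1, 2, 2 and 4, and DESeq2 called 0 in each.

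Ccl22 lay higher without overlap after BLZ945 in WT MG and in Ccr2 KO sdCAMs. WT MG had 6.58, 67.3 and 22.2 CPM beside 4.4, 0.449 and 5.14 CPM after CTL (log2 3.27 ± 0.83, adjusted p = 0.336 by edgeR's quasi-likelihood test). Ccr2 KO sdCAMs had 14.7, 12.5 and 29.1 CPM beside 4.17, 3.16 and 0.49 CPM (log2 2.81 ± 0.8, adjusted p = 0.423 by edgeR's quasi-likelihood test). The groups overlapped in Ccr2 KO MG (log2 1.02 ± 0.56) and in WT sdCAMs (log2 -0.51 ± 1.32, and 0.71 with library totals only). In MG, the other members tested overlapped between BLZ945 and CTL. Their log2 values in WT MG were 0.11 for Ccl2, -0.12 for Ccl7, -0.02 for Ccl12, -0.55 for Ccl3, -0.39 for Ccl4, 0.69 for Ccl5 and 0.32 for Ccl24. In Ccr2 KO MG they were -0.3 for Ccl2, -0.76 for Ccl7, 0.17 for Ccl12, 0.65 for Ccl3, 0.53 for Ccl4, 0.83 for Ccl5 and 1.23 for Ccl24, and Ccl8 was not tested in either.

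WT sdCAMs after BLZ945 differed widely among themselves. The marked library of mouse 12 had 87490 CPM of Ccl5, 14290 of Ccl12, 3456 of Ccl8 and 1678 of Ccl4. Mice 8 and 11, whose libraries were unmarked, had 2693 and 1788 CPM of Ccl5, 1043 and 361 of Ccl12, 198 and 34.5 of Ccl8, and 79.3 and 41.4 of Ccl4. All CTL libraries carried the mark. Ccl3 (127, 84.7 and 570 CPM) and Ccl24 (37.4, 23.0 and 215 CPM) lay below all CTL libraries (log2 -2.46 ± 0.96 and -2.79 ± 1.0, both with adjusted p = 0.689 by edgeR's quasi-likelihood test), although Ccl3 overlapped in plain CPM. The other log2 values were -1.33 for Ccl2, -1.25 for Ccl7, -1.25 for Ccl8, -2.06 for Ccl12, -2.21 for Ccl4 and -1.05 for Ccl5, with overlap. Without mouse 12, 5 members (Ccl3, Ccl4, Ccl8, Ccl12 and Ccl24) were called lower after BLZ945. The share of all genes called in that fit is not given, so it is not shown whether the members stand out. In that comparison the mark and BLZ945 cannot be told apart. The Saa3 share was 21% in mouse 12 and 2.39 and 1.79% in mice 8 and 11.

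In Ccr2 KO sdCAMs, none of which carried the mark, Ccl5 was at 5540, 4410 and 6450 CPM after BLZ945 and 4638 to 5044 CPM after CTL (log2 0.15 ± 0.25). Ccl8 was at 204, 174 and 244 CPM beside 109 to 162 CPM (log2 0.66 ± 0.25, adjusted p = 0.523 by edgeR's quasi-likelihood test). Ccl12 (799 to 1155 beside 594 to 750 CPM) also lay higher and Ccl4 (51.5 to 104 beside 106 to 121 CPM) lower in each library, without passing the test. Ccl2 (log2 0.34), Ccl7 (0.06), Ccl3 (-0.43) and Ccl24 (-0.26) overlapped.

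In reporter mice, the tdT+ and tdT- sdCAMs of each mouse were compared. At rest no member was called by edgeR's quasi-likelihood test (0.0236% of all genes, median 0.22 beside 0.0), 1 had an unadjusted p under 0.05, and DESeq2 called 0. Ccl24 was the one without overlap, at 49.5, 76.6 and 56.6 CPM in tdT+ and 170, 201 and 184 CPM in tdT- sdCAMs (log2 -1.61 ± 0.76, adjusted p = 1.0). The others overlapped, with log2 values of 0.19 for Ccl2, 0.41 for Ccl7, 0.22 for Ccl8, 0.57 for Ccl12, 0.38 for Ccl3, -2.03 for Ccl4 and 0.72 for Ccl5, and Ccl22 had 14, 5 and 0 counts in tdT- and none in tdT+ libraries (adjusted p = 0.871). After LPS, 3 members were called lower in tdT+ sdCAMs and none higher (10.6% of all genes, median -2.1 beside 0.11). Index numbers in the labels conflicted for a pair of LPS libraries, the tdT- cells of mouse 1 and the tdT+ cells of mouse 7. With these 2 libraries exchanged, no member was called between the populations by edgeR's quasi-likelihood test, with or without the mouse as a block. As labelled, Saa3 took 14.5% of counts in the former, beside 28.3 and 17.8% in the other tdT- libraries, and 2.74% in the latter, beside 2.14 and 0.68% in the other tdT+ libraries.

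Ccl5 after LPS was at 2018, 526 and 1784 CPM in tdT+ and 35450, 21120 and 23300 CPM in tdT- sdCAMs (log2 -4.21 ± 0.71, adjusted p = 0.00116 by edgeR's quasi-likelihood test). These were 0.0682 to 0.24% and 0.993 to 2.25% of counts. Each library of either population was above all resting libraries, which had 4.18 to 35.3 CPM.

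Ccl8 after LPS was at 47.4, 13.3 and 56.2 CPM in tdT+ and 1086, 1293 and 451 CPM in tdT- sdCAMs (log2 -4.61 ± 0.54, adjusted p = 3.43e-05 by edgeR's quasi-likelihood test). At rest both populations had 245 to 414 CPM, so that after LPS the tdT+ libraries lay below and the tdT- libraries above all resting ones. In plain CPM the tdT- library of mouse 7 (316 CPM) lay within the resting range, and the tdT+ libraries were still below it.

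Ccl12 after LPS was at 143, 411 and 121 CPM in tdT+ and 801, 4427 and 492 CPM in tdT- sdCAMs (log2 -3.09 ± 0.79, adjusted p = 0.02 by edgeR's quasi-likelihood test). Its resting range was 504 to 1771 CPM in tdT+ and 338 to 1186 CPM in tdT- cells. In plain CPM the populations overlapped after LPS, with tdT+ cells of mouse 5 (533 CPM) above tdT- cells of mice 1 and 7 (509 and 345 CPM). The call was lost without tdT+ cells of mouse 1 or 7 or tdT- cells of mouse 5 (adjusted p up to 0.138), in a fit of the libraries compared alone (0.0582) and with library totals only (0.0594), which shifted the median of all genes by 1.03 and the share of higher calls from 35.1 to 87.4%. With median-of-ratios size factors that share was 24.8%.

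Ccl7 after LPS was at 81.4, 27.9 and 91.6 CPM in tdT+ and 50.2, 2085 and 74.3 CPM in tdT- sdCAMs (log2 -3.47 ± 1.08, adjusted p = 0.0512 by edgeR's quasi-likelihood test). In mice 1 and 7 it was lower in tdT- cells, and without tdT- cells of mouse 5 the value was 0.11. With the mouse as a block it was -1.05. Without tdT- cells of mouse 1, 5 members were called, with Ccl7 and Ccl24 in addition, and without those of mouse 7, 4 were, with Ccl7 (adjusted p = 0.0177).

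Mouse 5 stood apart in both populations. Its tdT- sdCAMs had 652 CPM of Ccl2 and 1265 of Ccl3, where mice 1 and 7 had 41.2 and 41.4 of Ccl2 and 13.2 and 119 of Ccl3. Its tdT+ sdCAMs had 359 CPM of Ccl3 and 194 of Ccl4, where mice 1 and 7 had 29.9 and 33.3 of Ccl3 and 1.23 and 3.7 of Ccl4. In that tdT+ library the MG markers summed to 2150 CPM, beside 271 and 234 CPM in those of mice 1 and 7. Its sdCAM markers summed to 906 CPM, beside 5760 and 6560 CPM. In reporter MG after LPS, the MG markers summed to 2420 to 4710 CPM. These MG libraries had 338 to 534 CPM of Ccl3 and 159 to 340 CPM of Ccl4. The part of MG transcripts of that tdT+ library in the results was not tested. Ccl4 had a log2 difference of -2.1 ± 1.33 between the populations (adjusted p = 0.366 by edgeR's quasi-likelihood test) and was called with the mouse as a block (-3.66, adjusted p = 0.0015) and without tdT+ cells of mouse 5 (-6.75, adjusted p = 0.0112). Between the populations, Ccl2 (log2 -1.95 ± 0.81), Ccl3 (-1.72 ± 1.21) and Ccl24 (-1.79 ± 0.78) had no call. Without tdT- cells of mouse 5, 7 members were called for LPS in reporter sdCAMs, with Ccl7 (-2.07), Ccl12 (-1.23) and Ccl24 (-1.89) lower. The share of all genes called in that fit is not given (28.8% in the main fit), so it is not shown whether the members stand out.

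Ccl22 was high in both reporter populations after LPS. It was at 741, 696 and 914 CPM in tdT- and 513, 66.5 and 568 CPM in tdT+ sdCAMs, beside 1.35, 0.493 and 0 CPM and no count at rest. The LPS change over both was 12.28 ± 0.86 (adjusted p = 4.87e-07 by edgeR's quasi-likelihood test), a fitted size that depends on the prior count because tdT+ cells had no count at rest. After LPS the populations were apart without passing the test (log2 -1.04 ± 0.68, adjusted p = 0.392 by edgeR's quasi-likelihood test). In plain CPM they overlapped, with tdT+ above tdT- in mice 1 and 7 (609 beside 471 and 668 beside 640 CPM), and the difference was -0.07 with library totals only. WT and Ccr2 KO sdCAM libraries had at most 29.1 CPM after LPS, but these mice carried another batch label and genotype, and no test was made across them.

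Markers of other cells differed between the reporter populations. The 5 dendritic cell markers, which include Ccr7, summed to 49 to 71.3 CPM at rest and 162 to 196 CPM after LPS in tdT- sdCAMs, to 0 to 19.6 and 25.4 to 108 CPM in tdT+ sdCAMs, and to at most 37.7 CPM in the other groups, with Xcr1 and Clec9a at 0 in both reporter populations after LPS. Of the dendritic cell sum, Ccr7 alone averaged 4.11 CPM at rest and 108.5 CPM after LPS over both populations. The rise of the sum therefore does not show how the other markers moved. Neutrophil markers after LPS summed to 571 to 2240 CPM in tdT- and 8.32 to 47.4 CPM in tdT+ sdCAMs, with Ly6g and Retnlg at 0 in both. The 7 T or NK cell markers summed to 0.105 to 24.3 and 4.13 to 293 CPM in tdT- and to 21 to 150 and 0.309 to 37.2 CPM in tdT+ sdCAMs, and monocyte markers to 142 to 288 and 9.34 to 79.1 CPM in tdT- and 230 to 286 and 9.87 to 27.4 CPM in tdT+ sdCAMs, each at rest and after LPS. The part of these cells in the results was not tested.

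**Figure D4:**
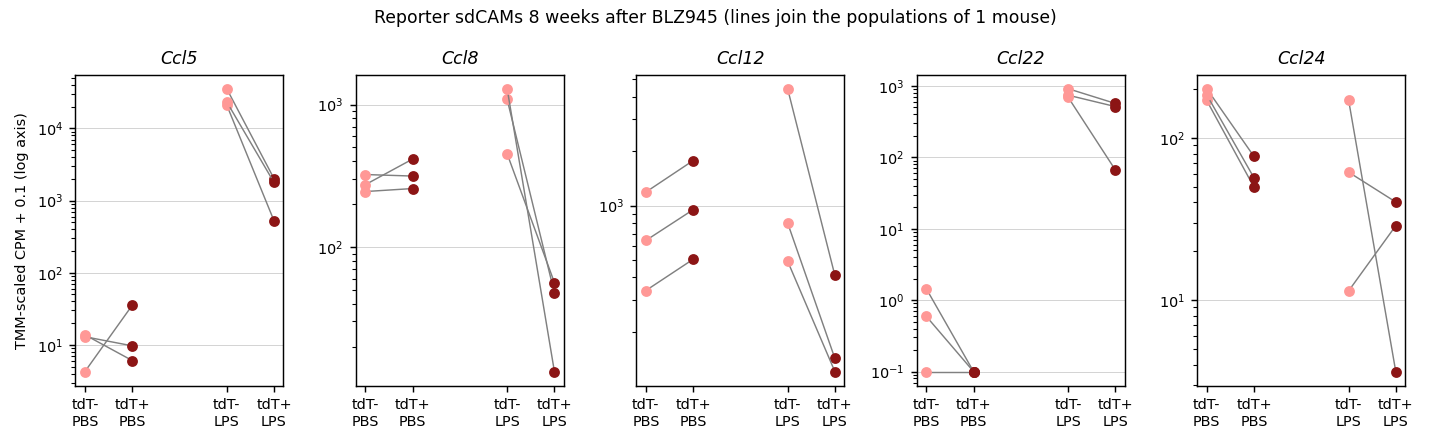
Level (TMM-scaled CPM plus 0.1, log axes) of 5 members in tdT- and tdT+ sdCAMs of reporter mice after PBS or LPS. Points are libraries, and lines join the populations of 1 mouse (3 mice per treatment). In each mouse given LPS, the lines of Ccl5, Ccl8, Ccl12 and Ccl22 fall from tdT- to tdT+, for Ccl5 from 21120 CPM or more to 2018 CPM or less, while that of Ccl24 rises in mouse 1. In plain CPM, not plotted, Ccl22 rises in mice 1 and 7 and Ccl24 also in mouse 7.

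The other CC ligands were taken from a list of 12 genes, of which 3 to 6 were tested per comparison. With LPS, Ccl9, a CCR1 ligand, and Ccl17, which shares CCR4 with Ccl22, rose in sdCAMs of WT, Ccr2 KO and reporter mice (2 of 5 tested higher in each). Of all genes, 6.32, 21.5 and 28.8% were called in these comparisons, in either direction. The log2 change of Ccl9 was 3.45, 3.48 and 1.75. After LPS, Ccl17 was at 927, 225 and 161 CPM in WT, 1.96, 7.8 and 7.85 CPM in Ccr2 KO, 12500, 4230 and 13000 CPM in tdT- and 81.4, 17.3 and 90.7 CPM in tdT+ sdCAMs. It was the listed ligand called between the reporter populations (log2 -7.3 ± 1.1, adjusted p = 0.000387 by edgeR's quasi-likelihood test). Ccl6 fell with LPS in WT MG (-1.09), Ccr2 KO MG (-1.56) and reporter sdCAMs (-1.28), and Ccl17 was called higher in Ccr2 KO MG. After LPS, 4 of 6 tested (Ccl6, Ccl9, Ccl17 and Ccl19) were higher in sdCAMs than MG in both WT and Ccr2 KO mice. Of all genes, 35.4 and 18.4% were called there. In Ccr2 KO mice, Ccl19 averaged only 1.8 CPM in sdCAMs and 0 in MG, and Ccl17 5.87 and 1.27 CPM. In reporter mice Ccl17 alone was higher, also at rest (means of 1.27 and 0 CPM). Interactions were called in Ccr2 KO mice for Ccl6 (2.04) and Ccl9 (2.86).

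Of 14 CC receptors, 5 to 8 were tested per comparison. Ccr1 rose with LPS in MG of WT mice (log2 2.58) and Ccr2 KO mice (5.15), as did Ccr7, and Ccr1 was higher in resting sdCAMs than MG in WT, Ccr2 KO and reporter mice (4.74, 11.79 and 4.54), with at most 4 counts per library in resting Ccr2 KO MG. Its interaction was called in WT (-3.08) and Ccr2 KO mice (-5.62). Ccr2, the receptor of Ccl2, Ccl7 and Ccl12, fell with LPS in WT sdCAMs to 0.756, 0 and 0.307 CPM (log2 -5.96 ± 1.07, adjusted p = 0.0128 by edgeR's quasi-likelihood test) and in reporter sdCAMs (-3.43). It was higher in resting sdCAMs than MG in WT mice (2.47) and reporter mice (5.59), and in the latter also after LPS (3.17).

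In Ccr2 KO sdCAMs, LPS raised Ccr7 and Ccrl2 (2.0 for Ccrl2), with Ccr7 at a mean of only 2.1 CPM after LPS. In reporter sdCAMs it raised Ccr7, Ccr9 and Ackr1 and lowered Ccr1 and Ccr2. Ccr9 and Ackr1 were low there, at means of 4.15 and 3.48 CPM after LPS, beside 108.5 CPM for Ccr7. Ccr1 was also higher in sdCAMs than MG after LPS in WT and Ccr2 KO mice (1.67 and 6.17), Ccr7 in reporter mice (4.13), and Ccr3, the receptor of Ccl24, in Ccr2 KO mice at rest and after LPS (3.67 and 3.97). No listed ligand or receptor was called between BLZ945 and CTL.

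The genes with the pattern most like each member were ranked among 8618 genes over the 54 libraries. Ccl5 was closest to Saa3 (Spearman's rho 0.966), Sod2 (0.956) and Lcn2 (0.953). Ccl8 was closest to Lgals1 (0.926), Ccl7 to Bst2 (0.901), Ccl24 to Pf4 (0.899), one of the sdCAM markers, Ccl4 to Bcl2a1a (0.886) and Ccl3 to Ccdc86 (0.852). Ccl12 was closest to Rpl35a (0.842), Ccl22 to Slc7a1 (0.818) and Ccl2 to Rpl15 (0.77). Among the members, Ccl3 and Ccl4 (0.91), Ccl8 and Ccl24 (0.89) and Ccl2 and Ccl12 (0.88) were the most alike pairs, and Ccl22 and Ccl24 (-0.18) the least. These values describe libraries that share mice, cell types and treatments.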

How the data were processed

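RNA-seq libraries of sorted MG and sdCAMs were prepared by the authors with a low-input cDNA kit without molecular identifiers, aligned with STAR 2.7.11a and counted per gene with featureCounts 2.0.8. The genome build is named in more than one way and the strand setting is not given in the sources used here. The deposited values are raw counts per gene symbol in 3 tables, with 1 column per library. The authors' own comparisons used DESeq2 1.46.0 and are not used here.

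Groups were taken from the labels. Counts were filtered with filterByExpr, scaled by TMM and tested with edgeR 4.0.16 (quasi-likelihood, two-sided, R 4.3.3), with Benjamini-Hochberg adjustment over all genes tested. MG and sdCAMs were fitted apart for LPS and BLZ945, and together for cell type and interaction. DESeq2 1.42.0 was an alternative. All 9 members are named in every comparison. The members and lists were chosen with earlier results of these data known. The results of 1 listed receptor are not reported here. The script was tested on simulated data with a smaller spread than that of the WT sdCAM and reporter fits. That test therefore does not show what those fits recover. Libraries with the same mouse number come from the same mouse, and over 36 such pairs the deviations from the group means correlated by -0.03 to 0.16 (median 0.05), with 5 over 0.1. The annotation (GRCm38) gave positions and exon lengths only, and promoters are RefSeq's.

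Total counts per library ran from 1705930 to 11330781, and the spread was widest in reporter MG (biological coefficient of variation 0.81), reporter sdCAMs (0.713) and WT sdCAMs (0.7), beside 0.257 in WT MG. Alternatives were other scalings, no filter on low counts, no limit on the fold change, other sets of libraries and leaving out each library. The mouse as a block, the IEG correction mark, summing per mouse and exchanging 2 libraries were also used. Shares of all genes tested that were called belong to the main fits and are not given for the alternatives. Member counts under an alternative therefore have no such share beside them.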

Additional observations from a re-analysis of the deposited data

Results flagged for a closer look

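In Ccr2 KO mice, the LPS change differed between sdCAMs and MG by the interaction test for Ccl2 (-4.06), Ccl7 (-5.57), Ccl12 (-4.36) and Ccl24 (2.49, on the log2 scale, sdCAMs minus MG). In reporter mice it differed for Ccl7 and Ccl22 (12.45), the latter resting on 1 MG library. The fitted value of Ccl7 (-9.14) depends on the prior count, since resting MG had no count, and is no bound.

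In WT mice, Ccl24 went down with LPS in all MG libraries (-3.23) and lay above rest in all sdCAM libraries (2.48). Ccl8 and Ccl24 lay above rest after LPS in all WT sdCAMs (2.26 and 2.48) and below rest in all Ccr2 KO sdCAMs (-1.13 and -1.24). These statements hold for TMM-scaled CPM, and in plain CPM both genes overlapped with rest in WT sdCAMs (0.95 and 1.09 with library totals only). The differences between genotypes were not tested, and that of Ccl24 between WT cell types did not pass its interaction test. Genotype and the IEG correction mark cannot be told apart in sdCAMs given CTL and LPS. The summed sdCAM markers also fell with LPS in Ccr2 KO sdCAMs.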

How the results depend on the processing

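Over 2686 member values under an alternative, 2490 stayed on their side of the threshold, 98 fell below it and 96 passed it. The other 2 reversed, changing both sign and side. Values without a call in either fit counted as kept even where their sign changed. An example is Ccl7 between tdT+ and tdT- sdCAMs after LPS, at -3.47, and at 0.11 without tdT- cells of mouse 5. The reversed values were those of Ccl22 without MG of reporter mouse 175, 8.97 for LPS in reporter MG and 2.66 between resting sdCAMs and MG (-0.71 and -6.51 were the lowest on leaving out any other library). No filter on low counts gave 8 calls for LPS in WT sdCAMs, 5 for the interaction in WT mice, 1 for BLZ945 in WT MG and in Ccr2 KO sdCAMs, 4 for LPS in reporter MG, 5 for the interaction in reporter mice, and 3 and 8 between tdT+ and tdT- sdCAMs at rest and after LPS. DESeq2 gave 7, 2 and 6 calls for LPS in WT sdCAMs, the WT interaction and LPS in reporter MG. Library totals only, chosen after seeing the data, gave 3 for the WT interaction and 2 for LPS in reporter MG, where median-of-ratios size factors also gave 2. With the libraries compared alone, 2 were called for the WT interaction and 1 between tdT+ and tdT- sdCAMs at rest. With the IEG correction mark as a covariate, 7 were called for LPS in WT sdCAMs. With 2 libraries exchanged, 0 were called between tdT+ and tdT- sdCAMs after LPS, also with the block. The causes were not tested.

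Leaving out single libraries gave, for LPS, 4 to 7 calls in WT MG, 0 to 3 in WT sdCAMs, 8 to 8 in Ccr2 KO MG, 5 to 8 in Ccr2 KO sdCAMs, 0 to 6 in reporter MG and 4 to 7 in reporter sdCAMs. Between cell types at rest and after LPS it gave 4 to 6 and 6 to 8 in WT, 7 to 7 and 5 to 5 in Ccr2 KO and 5 to 6 and 3 to 6 in reporter mice, and for the interaction 0 to 1, 3 to 5 and 1 to 4. For BLZ945 it gave 0 to 5 in WT sdCAMs and 0 to 0 elsewhere, and between tdT+ and tdT- sdCAMs 0 to 0 at rest and 2 to 5 after LPS.

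With the mouse as a block, the calls between cell types at rest and after LPS were 5 and 8 in WT, 7 and 5 in Ccr2 KO and 6 and 7 in reporter mice, those of the interaction 0, 4 and 2, and those between tdT+ and tdT- sdCAMs 0 and 4. The block changed no call of a member other than those given with the results. With 3 mice per group and shallow WT and reporter sdCAM libraries, changes that miss the threshold are not shown to be absent.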
